A study of Mus musculus with 4 samples.

Results

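Genes of the contractile apparatus of smooth muscle and myoepithelial cells were followed in the RNA sequencing of the study, in which salivary gland (SG) placodes made from mouse pluripotent stem cells (PSCs) were set beside embryonic submandibular glands (SMGs). The genes were Acta2, Actg2, Tpm1, Tpm2, Tagln, Cnn1, Myh11, Mylk, Lmod1 and Myocd, chosen by symbol, and they were 10 of 24771 features in the expression table. PSC-derived SG placodes were collected on day 10 of a culture of mouse embryonic stem cells, which began with 3000 cells in each well and held 2% Matrigel. BMP4 (2 ng/ml) was given on day 3, bFGF (25 ng/ml) together with retinoic acid (1 µM) on day 4, and, starting on day 6, 200 ng/ml of FGF10. The other group was SMGs of E12.5 mouse embryos, whose strain and dissection are not given in the sources used here. Each group had 2 samples. A single stem cell line stands for the placodes, and how many aggregates or embryos went into a sample is not given in the sources used here.

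Smooth muscle and myoepithelial cells contract when myosin II pulls on actin filaments, which tropomyosins coat and calponin and transgelin bind. Contraction starts when calcium and calmodulin activate myosin light chain kinase, and many of the genes are switched on by serum response factor (SRF) with its coactivator myocardin or the related MRTF proteins. In the adult salivary gland, myoepithelial cells wrap the acini and squeeze saliva into the ducts, whereas smooth muscle lies around the vessels.

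Nothing in the labels says that replicates were separate cultures or litters, so p-values measure the spread between these samples, which may be technical. No batch is labelled, and each sample belongs to 1 group, so any batch and the group cannot be told apart. The commonest low value of single-transcript genes, scaled by length and taken as 1 fragment, put the depth at about 15900000 to 19100000 fragments per sample. Across the samples, 12636 to 12807 features reached an FPKM (fragments scaled by transcript length and by the total mapped in the sample) of at least 1.

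The promoters of the members are shown first, because SRF and TEAD proteins, which drive many contractile genes, bind known short motifs near the start sites. RefSeq windows of GRCm38.p6 from 250 bases before to 50 bases after the start were matched for 6 of the 10 genes, and Tagln, Myh11, Actg2 and Myocd were not matched. This RefSeq start need not be the outer end of the gene spans given below. The stretch of Mylk lies far inside its gene, which begins at 34745210, and which transcript form its window belongs to is not given. The stretches of Acta2 and Tpm1 also lie inside their gene spans. A strict CArG box, the SRF motif, is CC, then 6 letters that are all A or T, then GG. A CArG-like box had the same ends with at most 1 G or C among the 6 middle letters, and it therefore includes the strict form. Both forms read the same way on either strand. The MCAT motif of TEAD proteins is CATTCC, or GGAATG on the other strand. Stretches of 30 bases around each match are printed 5′ to 3′ on the strand of the gene, with the motif in capitals.
Acta2, CArG-like, chr19:34255438-34255467, minus strand: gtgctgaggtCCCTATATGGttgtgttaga
Acta2, CArG-like, chr19:34255388-34255417, minus strand: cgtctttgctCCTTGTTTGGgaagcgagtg
Acta2, MCAT, chr19:34255502-34255531, minus strand: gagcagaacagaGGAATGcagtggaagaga
Tpm1, MCAT, chr9:67049252-67049281, minus strand: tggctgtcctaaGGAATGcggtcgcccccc
Mylk, MCAT, chr16:34784780-34784809, plus strand: tgcagttcagaaCATTCCctggtacgtgca
Lmod1, MCAT, chr1:135324671-135324700, plus strand: ccaagattccctGGAATGtcctcaagtttc

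The first bases of the CArG-like boxes of Acta2 lay 84 and 34 bases before the RefSeq start, which is inside the gene span given below. A CArG-like box was in 1 of 6 member windows and in 9.98% of all 32851 windows, and a strict CArG box was in 0 of 6 and in 1.63%. The MCAT motif was in 4 of 6 member windows and in 14.7% of all windows. These 4 windows belonged to Acta2 and Tpm1, which were lower in the placodes, and to Mylk and Lmod1, whose samples overlapped between the groups. Tpm2, which was lower, and Cnn1, which overlapped, had no match in their windows.

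Tpm1, Tpm2 and Acta2 were the highest of the contractile genes in both groups and were 2.73-fold, 5.42-fold and 3.57-fold higher in the E12.5 SMGs by the ratio of means. Tagln was low in both groups, and Cnn1, Myh11, Actg2, Lmod1 and Myocd, taken here as smooth muscle markers, stayed under an FPKM of 1 in all 4 samples. In 6 of the 10 genes the placode samples lay below both SMG samples, and in the other 4 the samples overlapped. No member lay above. Of all features above 0 in any sample, 41.4% were lower in the placodes without overlap, as were 46.8% of those with a mean FPKM of at least 1 and 31.5% of those below it.

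Features were tested with limma on log2(FPKM + 1) where the mean FPKM over the 4 samples was at least 1, which 4 of the 10 members met, each with at least 1 in every sample. At a Benjamini-Hochberg adjusted p under 0.05, 3 of these 4 were lower in the placodes and 0 were higher. Of the 13193 features tested, 40.4% were lower and 35.7% higher, 76.2% in all, and 15.2% were lower by at least 2-fold. The median log2 difference, placodes minus SMGs, was −1.58 over the 4 tested members and −0.05 over all tested features. The other 6 members were taken up in a second fit, chosen after seeing the data, with no minimum and log2(FPKM + 0.1). There 5 of the 10 members were lower and 0 higher, beside 31.8% lower and 27.5% higher of 20464 features. Without placode replicate 1, or without placode replicate 2, that fit called 2 of the 10 lower, which were Tpm1 and Tpm2. Whenever a sample was left out, here and below, the lone sample of its group was assumed to vary like the other group. In bulk tissue, fewer cells of a type and less RNA per cell cannot be told apart.

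**Figure D1:**
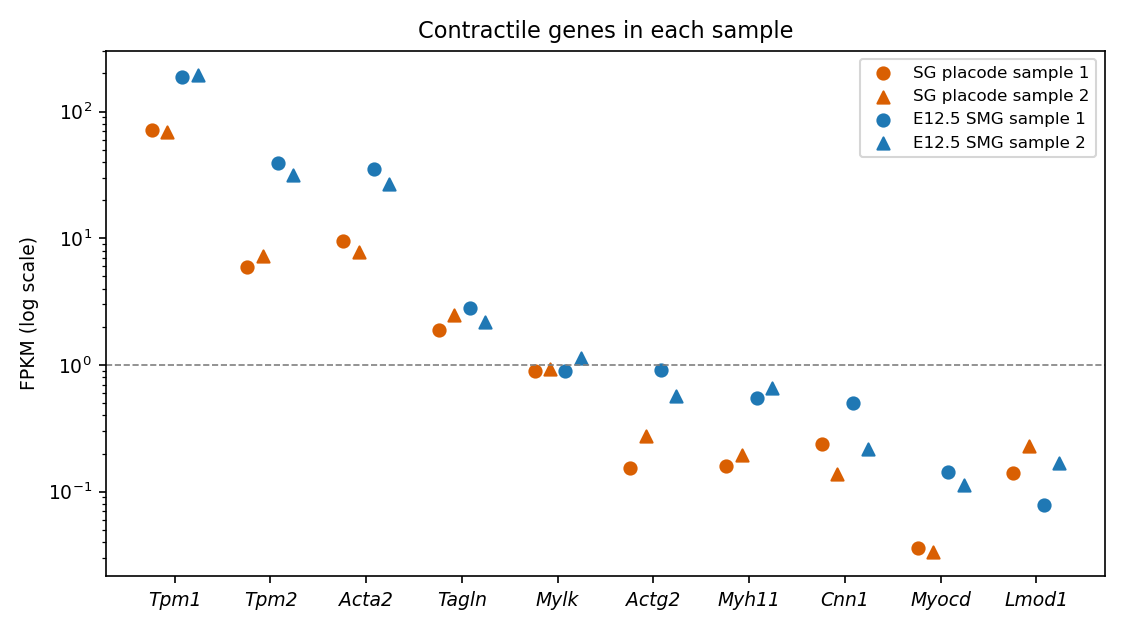
Levels of the 10 contractile genes in each sample, as FPKM on a log axis, with 1 point per sample and the dashed line at an FPKM of 1. Tpm1 stands highest in all 4 samples, from 68.8 to 195, and Cnn1, Myh11, Actg2, Lmod1 and Myocd lie under the line throughout.

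Among the actins, Acta2 encodes smooth muscle alpha-actin, which myoepithelial cells and myofibroblasts also make. It lies on chromosome 19 from 34241090 to 34255590 of GRCm38, minus strand (ENSMUSG00000035783). Its level was 9.48 and 7.83 FPKM in the placodes and 35.3 and 26.6 in the SMGs. Both placode samples lay well below both SMG samples, with means of 8.66 ± 1.17 and 30.9 ± 6.12 (SD, n = 2 each). The log2 difference was −1.72 ± 0.15 (SE, 95% interval −2.07 to −1.36), with a limma adjusted p of 7.84e-05. Acta2 was at the 68.7th to 71.8th percentile of features by level in the placodes and at the 88.3rd to 91.8th in the SMGs.

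Actg2 encodes enteric gamma-actin of visceral smooth muscle and lies on chromosome 6 from 83512905 to 83536265, minus strand (ENSMUSG00000059430). It measured 0.154 and 0.275 FPKM in the placodes and 0.906 and 0.572 in the SMGs, without overlap. These values correspond to about 3 and 6 fragments in the placodes and 19 and 15 in the SMGs, taking the longest annotated transcript as the length. In the fit with no minimum the log2 difference was −1.41 (95% interval −2.39 to −0.43, limma adjusted p = 0.0276). The call was lost when any of the 4 samples was left out, with adjusted p of 0.107 to 0.184.

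Shares within the actin family do not depend on the scaling between samples. Of the summed FPKM of 6 actin genes, Acta2 took 0.571% and 0.490% in the placodes and 1.82% and 1.38% in the SMGs, a difference of −1.07 percentage points between the means. The cytoplasmic actins Actb and Actg1 made up nearly all of the rest. Actg1 was at 1232 and 1170 FPKM in the placodes and at 1174 and 1205 in the SMGs, with a log2 difference of 0.01 (limma adjusted p = 0.877). Among the 4 muscle actins alone, Acta2 took 94.6% and 93.7% in the placodes but 27.2% and 29.4% in the SMGs. There Actc1, the cardiac alpha-actin that embryonic skeletal muscle also uses, took 62.1% and 60.8%, against 1.57% and 1.97% in the placodes. The muscle actin of the placodes was thus mostly Acta2 by FPKM, and that of the SMGs mostly Actc1.

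**Figure D2:**
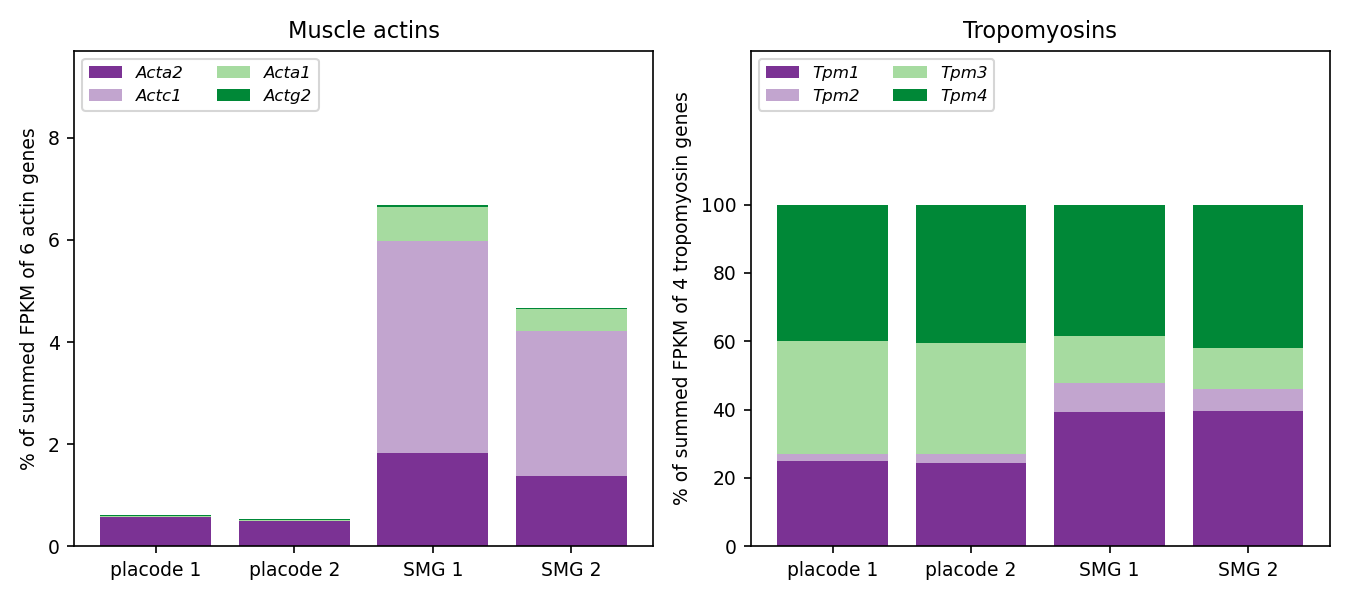
Stacked bars of the share, in percent, of the 4 muscle actins in the summed FPKM of 6 actin genes (left) and of Tpm1 to Tpm4 in their own sum (right), 1 bar per sample. Acta2 makes up nearly all of the short placode bars on the left, at 0.571% and 0.490%, and Actc1 most of the SMG bars, at 4.15% and 2.84%.

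Tpm1 encodes alpha-tropomyosin and was the highest member in every sample. It lies on chromosome 9 from 67022590 to 67049406, minus strand (ENSMUSG00000032366), with 21 annotated transcripts of muscle and non-muscle kinds that gene values cannot separate. Its level was 71.1 and 68.8 FPKM in the placodes and 187 and 195 in the SMGs. The replicates differed little, with means of 70.0 ± 1.63 and 191 ± 5.85 (SD, n = 2 each). The log2 difference was −1.44 ± 0.05 (SE, 95% interval −1.56 to −1.32, limma adjusted p = 1.78e-06).

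Tpm2, beta-tropomyosin, lies on chromosome 4 from 43514711 to 43523765, minus strand (ENSMUSG00000028464). It measured 5.88 and 7.19 FPKM in the placodes and 39.3 and 31.6 in the SMGs. Both SMG samples were far above the placodes, and the log2 difference of −2.27 ± 0.13 (SE, 95% interval −2.58 to −1.96) was the largest of the tested members, with a limma adjusted p of 1.31e-05. The Tpm2 level was 0.0826 and 0.104 of that of Tpm1 in the placodes and 0.210 and 0.161 in the SMGs.

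The tropomyosin family differed in make-up as well as in total. Summed FPKM of Tpm1 to Tpm4 was 285 and 283 in the placodes and 475 and 493 in the SMGs. Tpm1 took 24.9% and 24.3% of it in the placodes and 39.4% and 39.7% in the SMGs. Tpm2 took 2.06% and 2.54% against 8.26% and 6.41%. The share of Tpm3 went the other way, at 33.1% and 32.5% in the placodes and 13.8% and 12.03% in the SMGs, while the shares of Tpm4 overlapped.

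Tagln encodes transgelin, an actin-binding protein of smooth muscle and an early marker of its differentiation. Its level was 1.90 and 2.49 FPKM in the placodes and 2.82 and 2.19 in the SMGs. The groups overlapped, and the log2 difference was −0.14 ± 0.15 (SE, 95% interval −0.50 to 0.22, limma adjusted p = 0.426). The interval leaves out a difference as large as that of Acta2. Relative to Acta2 within each sample, Tagln was at 0.200 and 0.317 in the placodes and 0.0800 and 0.0823 in the SMGs.

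The level of Tagln is uncertain for another reason. The gene lies on chromosome 9 from 45929619 to 45936058, minus strand (ENSMUSG00000032085), and its exons share bases with Pcsk7 and Gm48529 on the other strand. Of its 50-base words, 58.3% also occur in transcripts of those genes, and whether counting used the strand is not given in the sources used here. Pcsk7 was at 6.51 and 6.10 FPKM in the placodes and 9.52 and 10.3 in the SMGs. Reads that lie within the shared bases cannot be told apart without strand.

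Cnn1, calponin 1, restrains actomyosin in differentiated smooth muscle and lies on chromosome 9 from 22099216 to 22109630, plus strand (ENSMUSG00000001349). It measured 0.238 and 0.138 FPKM in the placodes and 0.499 and 0.219 in the SMGs. The lower SMG sample lay between the placode samples, and the log2 difference in the fit with no minimum was −0.62 (limma adjusted p = 0.285). Its values rest on about 5 to 19 fragments a sample. Its paralogs were much higher, with Cnn2 at 18.1 and 17.4 FPKM in the placodes against 56.4 and 61.6 in the SMGs. Cnn3 stood at 246 and 248 against 228 and 214.

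Myh11 encodes the smooth muscle myosin heavy chain, a marker of the lineage, and lies on chromosome 16 from 14194535 to 14291372, minus strand (ENSMUSG00000018830). It was at 0.159 and 0.194 FPKM in the placodes and 0.553 and 0.654 in the SMGs. The groups did not overlap, and the SMG mean was 3.42-fold the placode mean. These values rest on about 17 and 21 fragments in the placodes and 58 and 82 in the SMGs. In the fit with no minimum the log2 difference was −1.35 (95% interval −2.08 to −0.61, limma adjusted p = 0.0127). The adjusted p rose to 0.0607 without placode replicate 1 and to 0.0516 without placode replicate 2.

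The non-muscle myosin heavy chains were far above it. Myh9 was at 10.5 and 11.5 FPKM in the placodes and 34.6 and 32.9 in the SMGs, with a log2 difference of −1.54 (limma adjusted p = 4.78e-06). Myh10 was at 52.7 and 53.8 against 57.2 and 57.9.

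Mylk encodes myosin light chain kinase, which also has a non-muscle form, and lies on chromosome 16 from 34745210 to 35002420, plus strand (ENSMUSG00000022836). It measured 0.901 and 0.928 FPKM in the placodes and 0.902 and 1.13 in the SMGs. The values were close, with a log2 difference of −0.13 (limma adjusted p = 0.637) in the fit with no minimum. At about 112 to 170 fragments a sample, it was the most deeply covered member among the 6 under the minimum. Lmod1, leiomodin 1, starts actin filaments in smooth muscle and lies on chromosome 1 from 135324807 to 135368065, plus strand (ENSMUSG00000048096). It was at 0.141 and 0.228 FPKM in the placodes and 0.0790 and 0.167 in the SMGs, with overlap. Its log2 difference of 0.36 (limma adjusted p = 0.431) was the one member value in that fit above 0.

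Myocd encodes myocardin, the coactivator with which SRF drives smooth muscle and cardiac genes, and lies on chromosome 11 from 65176561 to 65269989, minus strand (ENSMUSG00000020542). It was the lowest member in the placodes, at 0.0362 and 0.0332 FPKM, and stood at 0.142 and 0.112 in the SMGs. The groups did not overlap, but the values come from about 3 and 3 fragments against 12 and 11. The log2 difference was −0.75 (95% interval −1.49 to −0.01, limma adjusted p = 0.0764) in the fit with no minimum. Leaving out SMG replicate 1 or 2 gave an adjusted p of 0.0222 or 0.0201, and leaving out placode replicate 1 or 2 gave 0.0805 or 0.0838. It was 0.0124 with no trend in the variance.

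**Figure D3:**
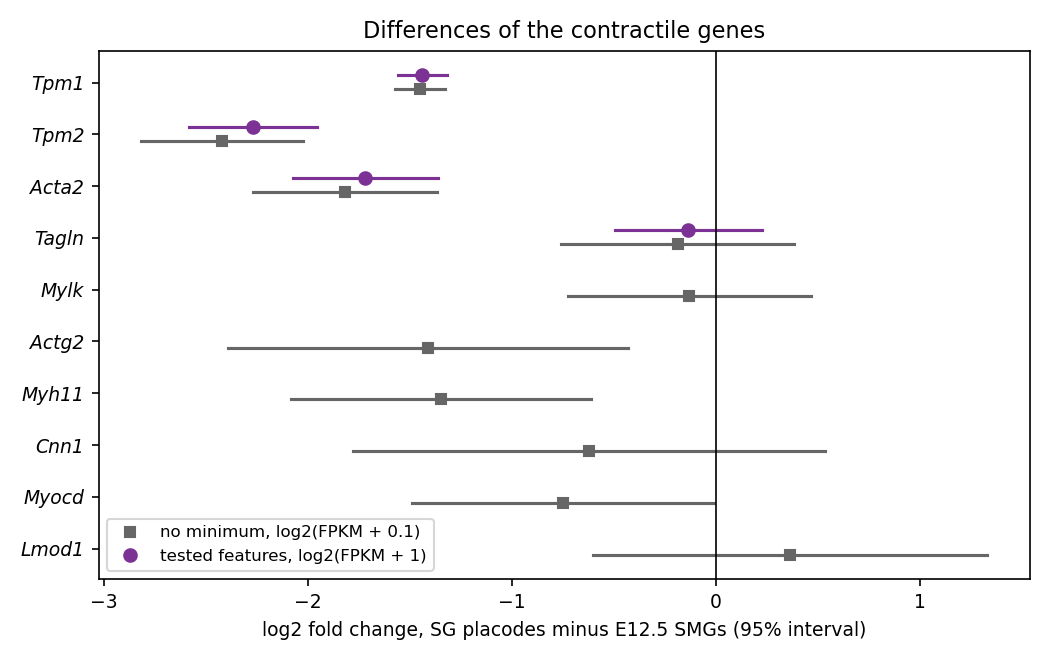
Log2 difference of each contractile gene, placodes minus SMGs, with 95% intervals from limma, as circles for the 4 tested members on log2(FPKM + 1) and squares for all 10 in the fit with no minimum on log2(FPKM + 0.1). On the first scale Tpm2, Acta2 and Tpm1 lie at −2.27, −1.72 and −1.44, and the interval of Tagln crosses 0.

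Within the placodes the order of levels was Tpm1, Acta2, Tpm2, Tagln and Mylk, with no overlap between the samples of neighbours. Actg2, Cnn1, Lmod1 and Myh11 followed and did not separate from their neighbours, and Myocd was last. In the SMGs, Tpm2 and Acta2 overlapped below Tpm1, followed by Tagln. Below that Mylk overlapped Actg2, and Actg2 overlapped Myh11, then came Cnn1, and Myocd and Lmod1 overlapped at the bottom. FPKM is per length, so these levels can be set side by side.

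Lists of related genes were read beside the members. Of 12 SRF cofactors and partners, all tested, 11 were lower in the placodes and 1 higher, with a median log2 difference of −0.71. Srf itself was at 14.5 and 14.7 FPKM in the placodes and 23.8 and 25.7 in the SMGs, a log2 difference of −0.72 (limma adjusted p = 8.69e-05). The MRTF genes Mkl1 and Mkl2 had log2 differences of −0.45 and −0.46, both past the threshold. SRF and both MRTF genes were thus several FPKM or more in each sample, where Myocd was near 0. Klf4, a repressor of smooth muscle genes, fell the most of the list, from 9.35 and 10.6 FPKM in the SMGs to 1.21 and 0.966 in the placodes (log2 difference −2.39, limma adjusted p = 6.42e-06). Csrp1, a LIM-domain partner of SRF, was the 1 gene that was higher, at 43.1 and 44.3 against 26.7 and 27.0 (0.68, limma adjusted p = 3.68e-05). Csrp2, the highest of the list on average, was lower, at 27.9 and 25.6 against 41.0 and 47.0 (−0.70, limma adjusted p = 3.34e-04).

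Of 21 other smooth muscle genes, 16 were tested, of which 10 were lower in the placodes, 5 higher and 1 not called (median −0.74). The intermediate filament gene Des had the lowest log2 difference, with 0.721 and 0.585 FPKM in the placodes and 8.82 and 7.19 in the SMGs (−2.44, limma adjusted p = 9.47e-06). Skeletal muscle also makes desmin. Myl9, the regulatory light chain of smooth muscle and non-muscle myosin, was at 3.61 and 4.405 against 25.1 and 25.8 (−2.41, limma adjusted p = 3.06e-06). Cald1, caldesmon, was the highest of the list on average, at 29.8 and 30.6 against 62.7 and 57.1. The small heat shock gene Hspb6 was higher in the placodes, at 4.90 and 3.46 against 1.15 and 1.75 (1.08, limma adjusted p = 2.02e-03).

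Of 19 paralogs of the members, 14 were tested, of which 8 were lower, 4 higher and 2 not called (median −0.68). Actc1 had the lowest difference, with 0.158 and 0.165 FPKM in the placodes and 80.4 and 55.0 in the SMGs (−5.86, limma adjusted p = 9.59e-07). At the other end stood Tagln3, a paralog of Tagln used by neurons, with 136 and 139 FPKM in the placodes and 8.29 and 6.90 in the SMGs (4.02, limma adjusted p = 3.30e-07). The neuronal tropomodulin Tmod2 was also higher, at 10.1 and 10.1 against 2.96 and 3.06. Neural markers moved the same way, with 7 of 7 higher in the placodes, beside 35.7% of all tested features. Their summed level was 761 and 795 FPKM against 97.8 and 89.5. Of the 7, 5 reached an FPKM of 1 in both SMG samples, and the rest passed the minimum through the placodes. The part of neural cells in these results was not tested.

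Of 16 SRF and MRTF targets outside the contractile apparatus, 14 were tested, 12 of them lower, 0 higher and 2 not called (median −1.21). Fos had the lowest log2 difference, with 1.52 and 2.10 FPKM in the placodes and 39.5 and 40.7 in the SMGs (−3.88, limma adjusted p = 8.81e-07). Flna, an actin cross-linker, was highest on average, at 37.6 and 40.5 against 121 and 130 (−1.66). Ctgf, a target of MRTF and YAP signalling, was at 3.15 and 2.26 against 2.46 and 2.37 (0.11, limma adjusted p = 0.513). The share lower among all tested features was 40.4%, beside which these counts stand.

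**Figure D4:**
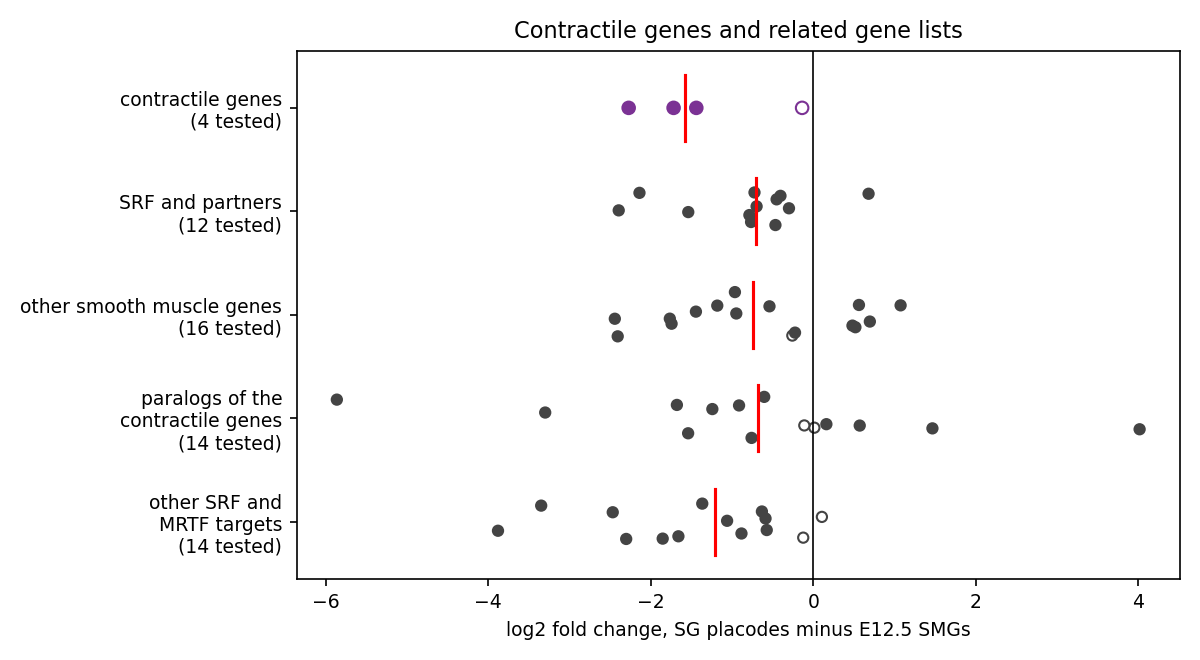
Log2 difference, placodes minus SMGs, of each tested gene in 4 related lists and of the tested members. Filled points passed an adjusted p of 0.05, open points did not, and the red bar is the median, at −1.58 for the 4 tested members. The lists drawn are those described in the text, and 1 further list is not reported.

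Markers of cells that could carry these genes were read in the same samples. Their counts, here and below, stand beside 40.4% lower and 35.7% higher among all tested features. The 5 genes taken as smooth muscle markers are members themselves, from a set for smooth muscle and myoepithelial cells alike. They summed to 0.728 and 0.869 FPKM in the placodes and 2.18 and 1.72 in the SMGs, and none reached 1 in any sample. Of 7 markers of basal epithelium and myoepithelium, 6 were tested and all 6 were lower in the placodes. The sums of the 7 were 0.598 and 0.911 against 101 and 93.2. An FPKM of 1 was reached by 0 of the 7 in both placode samples and by 6 in both SMG samples. These 6 thus passed the minimum through the SMGs, which nearly fixed the direction of their calls. Oxtr, which was not tested, overlapped, at 0.386 and 0.527 against 0.496 and 0.253, and made up most of the placode sums. The basal keratins Krt5, Krt14 and Krt17 were listed at 0 in both placode samples. The part of basal or myoepithelial cells in the levels of Acta2 and Tpm2 was not tested. By other measures, the paper reported higher Krt5 and Krt14 in qPCR after FGF10, and Krt5 protein in duct-like structures. It also reported cells stained for smooth muscle alpha-actin, the protein of Acta2, in the outer layer of the placodes.

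Mesenchyme and vessel markers were mostly lower in the placodes. Of 9 mesenchyme markers, 8 were tested and all 8 were lower in the placodes, with sums of 212 and 209 FPKM against 2107 and 2053. Tcf21, which was not tested, went the other way, at 0.458 and 0.619 against 0.175 and 0.130. All 6 endothelial markers were lower, with sums of 9.75 and 9.32 against 118 and 124. Of these 6, only 1, Cdh5, reached an FPKM of 1 in both placode samples, and the rest passed the minimum through the SMGs. The salivary epithelium markers gave 3 lower, 1 higher and 2 not called of 6, with sums of 101 and 107 against 426 and 408. Pitx1 was at 0.539 and 0.429 FPKM against 245 and 253, and Epcam at 1.75 and 2.69 against 87.2 and 78.8. Cdh1, also lower, was at 1.11 and 1.18 against 28.2 and 24.7. Sox9 was higher, at 42.1 and 43.0 against 9.31 and 7.66. Krt8 and Krt18 were the 2 not called, and with Sox9 they made up most of the placode sums. The part of these cell types in the levels of Acta2, Tpm1 and Tpm2 was not tested.

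Skeletal muscle markers were found mainly in the SMG samples. Of 17 markers, 13 were tested, of which 11 were lower in the placodes, 1 was higher and 1 was not called. An FPKM of 1 was reached by 3 of the 17 in both placode samples and by 12 in both SMG samples. Most of the 11 therefore passed the minimum through the SMGs. Their summed level was 26.4 and 25.0 FPKM in the placodes and 174 and 116 in the SMGs. Most of the placode sums came from Pax7, at 12.7 and 11.5 FPKM, and Mylpf, at 10.3 and 10.4. Myog, Myf5, Myf6, Myl1 and Myh8 were listed at 0 in both placode samples. Skeletal muscle also uses Tpm1 and Tpm2 and, while it forms, Acta2. Of 8 cardiac markers, 2 were tested and 1 was lower, with sums of 1.19 and 0.748 against 16.2 and 10.9. No cardiac marker reached an FPKM of 1 in both placode samples.

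The SMG samples also differed from each other. The mitochondrial share of summed FPKM was 10.7% in SMG replicate 1 and 8.07% in replicate 2, against 5.93% and 5.88% in the placodes. SMG replicate 1 was above replicate 2 in 16 of 17 skeletal muscle markers, but also in 7 of 7 basal epithelium and myoepithelium markers, 7 of 7 neural markers, 5 of 6 salivary epithelium markers, 7 of 9 mesenchyme markers and 5 of 8 cardiac markers. It was above in 2 of 6 endothelial and 2 of 8 pericyte markers, and in 6 of the 10 contractile genes. Over tested features the median log2 ratio of replicate 1 to replicate 2 was 0.01, and the share with replicate 1 above was not computed. The sign means little for markers at very low levels in both SMG samples, such as Myf6, Ckm, Sox1 and Pax6. For Acta2 the ratio was 1.33, for Tpm2 1.24, for Tagln 1.29, for Actg2 1.58, for Cnn1 2.28 and for Myocd 1.27. The ratio was 0.958 for Tpm1, 0.845 for Myh11, 0.795 for Mylk and 0.473 for Lmod1. On the scale of log2(FPKM + 0.1), the 5th to 95th percentile of tested features ran from −0.35 to 0.41, and Acta2, at the upper edge, Tpm1, Tpm2 and Tagln lay inside it. Cnn1, Actg2 and Lmod1 lay outside, but each rested on under 20 fragments in both SMG samples and the range was taken over features with a mean FPKM of at least 1. The part of any of these cell types, or of the mitochondrial share, in the differences was not tested. Without SMG replicate 1, the log2 difference between placodes and SMGs was −1.52 for Acta2 (limma adjusted p = 1.82e-03), −2.12 for Tpm2 (9.12e-04) and −1.47 for Tpm1 (2.78e-04).

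**Figure D5:**
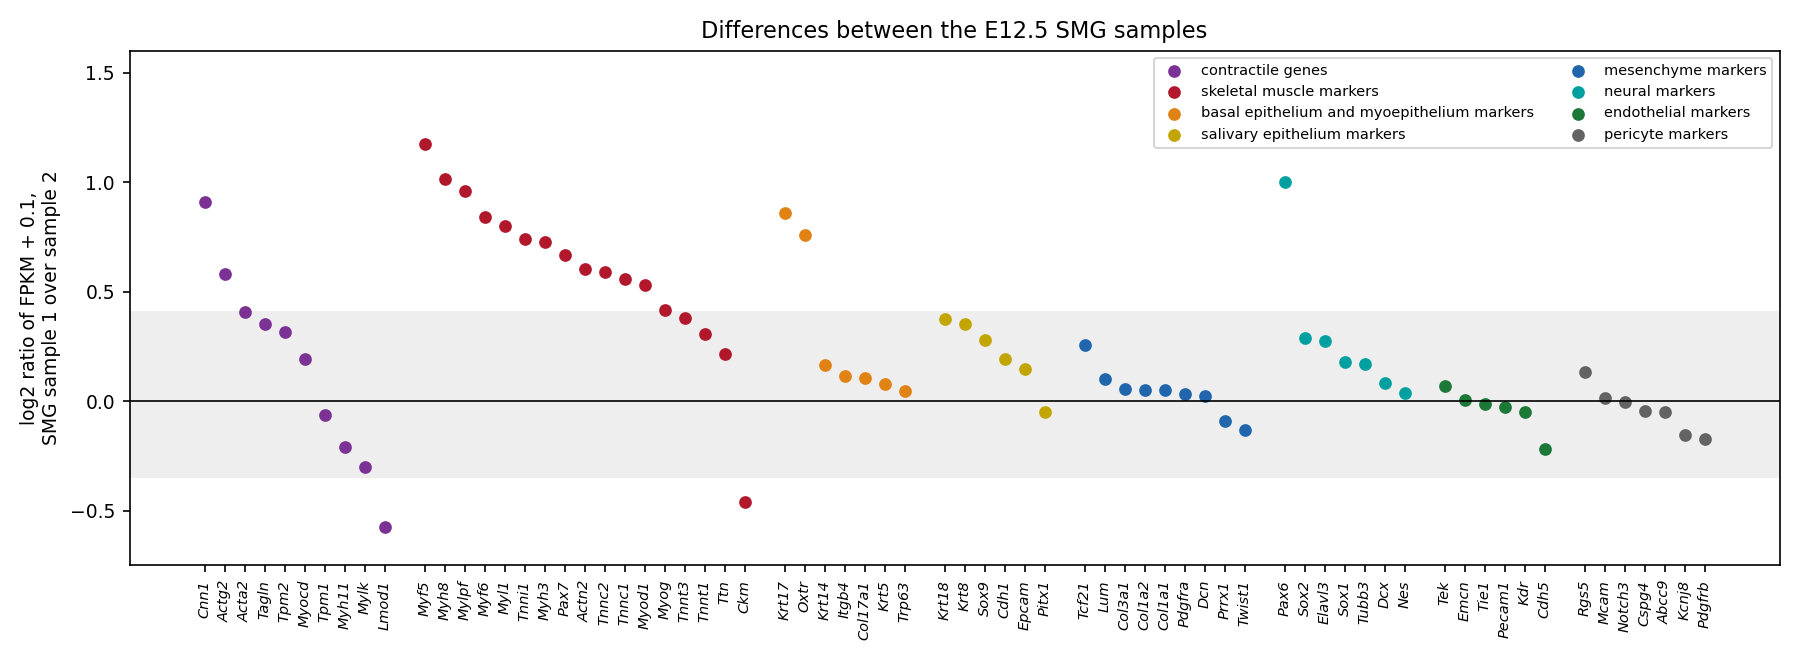
Log2 ratio of SMG replicate 1 to SMG replicate 2 on the scale of log2(FPKM + 0.1), for the contractile genes and for markers of 7 cell types, leaving out genes listed at 0 in both. The grey band spans −0.35 to 0.41, the 5th to 95th percentile of tested features, and 16 of 17 skeletal muscle, 7 of 7 basal epithelium and 7 of 7 neural markers lie above 0.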

How the data were processed

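RNA sequencing values were deposited as FPKM per gene for 2 PSC-derived SG placode and 2 E12.5 SMG samples. The authors aligned reads with HISAT2, and the submitters' processing notes list GRCm38 and GRCh38 as builds. The version, quantifier, annotation, trimming and strand setting are not given in the sources used here. FPKM values are not counts, so limma 3.58.1 in R 4.3.3 (lmFit and eBayes with trend) was run on log2(FPKM + 1), over 13193 features with a mean FPKM of at least 1, two-sided, with Benjamini-Hochberg adjustment and a threshold of 0.05. Log2 differences on this scale understate changes of low genes. A gene near 0 in 1 group can pass the minimum through the other group alone, which nearly fixes the direction of its call. An exact permutation test of 2 against 2 samples cannot go below p = 0.333 and was not used. The members and the gene lists were chosen with earlier results of these data known. All members were named, together with the tested gene of the highest and of the lowest log2 difference and the gene of the highest mean FPKM in each related list that is reported. Srf, Mkl1, Mkl2, Myl9, Myh9, Myh10, Cnn2, Cnn3, Tpm3, Tpm4, Tmod2, Actb, Pcsk7 and the cell type markers were named after their values were seen. The results of 1 further list are not reported here. Of all IDs, 22022 matched GENCODE M21, from which coordinates and transcript lengths were taken. Depth was estimated from the commonest low value of FPKM times transcript length, taken as 1 fragment, in single-transcript genes over 500 bases. That value was sought within a range set beforehand, which limits the depth that could be found. Fragment numbers were taken from that depth, and both are approximate. Tested on simulated data of 13193 genes, the limma step recovered 160 of 200 genes changed by a log2 difference of 1, and called 8 of 12993 unchanged genes. The simulated noise was normal, independent and set by the spread of these same duplicates, and far fewer genes were changed than were called here. The simulation therefore cannot show how reliable the calls on the real samples are. Alternatives changed the pseudocount, scaling, minimum level, variance model, feature set, replicate block and samples.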

Additional observations from a re-analysis of the deposited data

How the results depend on the processing

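Of 16 alternatives, 15 left 3 members lower and all 16 left 0 higher. With no minimum level and a pseudocount of 1, 5 of 10 were lower, and the median log2 difference of tested members was −0.32 because low members then entered it. Leaving out 1 sample in turn kept Acta2, Tpm1 and Tpm2 lower, with 3 members called each time. Across these 16 alternatives Acta2 ranged from −1.91 to −1.52, Tpm1 from −1.47 to −1.38 and Tpm2 from −2.44 to −2.12. Tagln, where tested, ranged from −0.27 to −0.00. In the fit with no minimum and a pseudocount of 0.1, leaving out 1 sample gave 2 to 5 members lower, and dropping the variance trend gave 6, with Myocd. The 2 members were Tpm1 and Tpm2 without either placode replicate, where Acta2 had a limma adjusted p of 0.0607 and 0.0714, and it had 0.0513 without SMG replicate 1. With fewer samples, 8007 to 8438 features were called in that fit in place of 12139. Mylk took either sign across the alternatives of that fit (−0.28 to 0.02) and was never called. Of other smooth muscle genes, 1 was higher and 5 lower at a minimum mean FPKM of 5, and 3 were higher without placode replicate 2. The Acta2 share of the actins differed by −1.29 to −0.845 points. With the replicate number as a block, 3 members were lower and the median log2 difference was −1.58. Same-numbered samples did not deviate together (r = −0.03 across features, which are not independent replicates), so the numbers were not taken to pair the samples, and the block changed no member's call. Members resting on under about 20 fragments in a sample (Actg2, Cnn1, Lmod1, Myocd, and Myh11 in 1 placode sample) are limited by depth.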

Other observations

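Pericytes, the mural cells of small vessels, share contractile genes with smooth muscle, and most of their tested markers were lower in the placodes. Of 8 pericyte markers 6 were tested, 5 of them lower in the placodes and 1 higher. The sums of the 8 were 38.7 and 40.3 FPKM in the placodes and 73.9 and 76.8 in the SMGs. Cspg4, Kcnj8 and Abcc9 were under an FPKM of 1 in both placode samples and passed the minimum through the SMGs. The receptor gene Pdgfrb was at 6.59 and 6.55 FPKM in the placodes and 20.04 and 22.6 in the SMGs. The potassium channel subunit gene Abcc9 was at 0.0682 and 0.0606 against 6.59 and 6.82. Notch3, a receptor of mural cells that neural progenitors also make, was the 1 that was higher, at 26.9 and 27.8 against 21.2 and 21.3 (log2 difference 0.35, limma adjusted p = 1.14e-03). It made up most of the placode sums.

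Of the skeletal muscle markers, Pax7, which also marks dorsal neural and neural crest cells, was the 1 gene higher in the placodes, at 12.7 and 11.5 FPKM against 1.27 and 0.763 (log2 difference 2.71, limma adjusted p = 1.02e-05). Mylpf, a fast muscle light chain, was at 10.3 and 10.4 in the placodes and 20.2 and 10.3 in the SMGs, with overlap. These genes were picked after their values were seen.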
